A study of Mus musculus with 9 samples.

Results

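Transcript levels of the paired helicases Ruvbl1 and Ruvbl2 and of 7 core subunits of the chromatin complexes they serve (Ino80, Ep400, Srcap, Kat5, Trrap, Actl6a and Dmap1) were followed in a mouse spermatogonial stem cell (SSC) line during the first 48 h of in vitro differentiation. These 9 genes were chosen by name, as subunits of the INO80, SRCAP and TIP60 complexes, among the 46078 gene identifiers counted in each library. All 9 passed the expression filter in each of the 3 comparisons of time points. The cells were EGFP-SSCs, a wild-type line that carries green fluorescent protein. At 0 h they were in normal culture, on mouse embryonic fibroblasts arrested with mitomycin C, in medium with GDNF. The 24 h and 48 h groups were differentiated in co-culture with an equal number of somatic cells from busulfan-exposed mouse testes, in medium with KSR, BMP-4/7, retinoic acid, activin A, testosterone, FSH and BPE. EGFP-positive cells were then sorted by flow cytometry. Each time point had 3 biological replicates. All 9 libraries came from 1 cell line, and the labels do not say whether the replicates were separate cultures, so the p-values measure the spread between these libraries. The change from 0 h to the later times also includes the change of medium, of supporting cells and of handling, which cannot be told apart from differentiation here.

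RUVBL1 and RUVBL2 are AAA+ ATPases that assemble together into rings. These rings are a shared part of the INO80 complex, which slides and spaces nucleosomes, of the SRCAP complex, which inserts the histone variant H2A.Z, and of the TIP60 complex, which joins the acetyltransferase KAT5 to the ATPase EP400. The same pair also works outside chromatin, in the R2TP cochaperone that helps HSP90 to build large protein assemblies. In the testis, INO80 is known to be needed for meiosis. KAT5 and EP400 are known for maintaining embryonic stem cells. RUVBL2 was among the proteins that the study examined in relation to histone H3 marks.

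Because a change was called for Ruvbl2 and none for Ruvbl1, the sequences upstream of their starts are shown side by side. Each holds the 250 bases before the RefSeq transcription start, 5′ to 3′ on the strand of the gene, with GC boxes (GGGCGG) and CCAAT boxes (CCAAT) in capitals wherever they lie on either strand. Ruvbl1 is on the plus strand at chr6:88465159-88465408 and Ruvbl2 on the minus strand at chr7:45434465-45434714, both of GRCm38.p6. The annotated genes span chr6:88465409-88497572 (Ruvbl1, ENSMUSG00000030079) and chr7:45421760-45438096 (Ruvbl2, ENSMUSG00000003868), and the RefSeq start of Ruvbl2 lies inside its annotated span.
Ruvbl1: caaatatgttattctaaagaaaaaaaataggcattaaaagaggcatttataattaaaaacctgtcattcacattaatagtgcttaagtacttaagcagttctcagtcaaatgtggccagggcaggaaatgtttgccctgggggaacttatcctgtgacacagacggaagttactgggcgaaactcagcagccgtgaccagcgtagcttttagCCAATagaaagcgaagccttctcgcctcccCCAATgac
Ruvbl2: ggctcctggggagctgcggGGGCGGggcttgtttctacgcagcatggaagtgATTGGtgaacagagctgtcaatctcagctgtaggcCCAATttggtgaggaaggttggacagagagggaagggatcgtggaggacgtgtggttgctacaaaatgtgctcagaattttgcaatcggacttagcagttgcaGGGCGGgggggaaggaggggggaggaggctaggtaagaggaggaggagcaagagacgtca
The Ruvbl1 window held no GC box and 2 CCAAT boxes, whose first bases lie 38 and 8 bases before the start. The Ruvbl2 window held 2 GC boxes, 231 and 60 bases before the start, and 2 CCAAT boxes, 198 and 163 bases before it. Its GC content was 56.8%, against 42.4% for Ruvbl1. Among all 32851 RefSeq promoter windows of this length, 32.7% held a GC box and 33.8% a CCAAT box, so both motifs are common. The E-box CACGTG (6.02% of windows) and the cAMP response element TGACGTCA (1.55%) were also searched on both strands, and neither was found in the 2 windows. These searches describe letters and no binding was measured.

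In summed counts the libraries held between 16825251 and 22201892 reads on genes. Levels are given as CPM, counts scaled to the size of the library with TMM factors over all 9 libraries, and differences as log2 fold changes from edgeR's quasi-likelihood test on the 6 libraries of a comparison, called at a Benjamini-Hochberg adjusted p of up to 0.05. Replicate libraries were further apart than counting error alone gives (chi-square over degrees of freedom of 7.13 to 81.4 for the pairs), and each was counted once. The sorted cells carried germ cell transcripts at all times, with a summed level over 7 markers of 1860 to 2860 CPM at 0 h, 1960 to 2190 CPM at 24 h and 1910 to 2120 CPM at 48 h. These markers did not move together. Gfra1, the GDNF receptor of undifferentiated spermatogonia, fell from a mean of 230.0 CPM at 0 h to 36.4 CPM at 24 h and 18.02 CPM at 48 h and was called lower by edgeR in each comparison. Zbtb16 was called lower at 48 h against both earlier times, Sall4 higher at 24 h against 0 h and lower at 48 h against 24 h, and Ddx4, Dazl, Tex101 and Mael were not called. Transcripts of other cell types moved with time. Over 8 stromal markers the sum was 315 to 402 CPM at 0 h, 2130 to 2460 CPM at 24 h and 2860 to 3150 CPM at 48 h, and over 5 myoid markers it was 13.2 to 15.4, 144 to 204 and 256 to 315 CPM. Sertoli markers summed to 15.8 to 19.1, 40.0 to 57.8 and 52.3 to 53.7 CPM over 8 genes, with Fshr at or under 3 counts in each library. Leydig markers summed to 4.48 to 6.79, 24.6 to 38.5 and 25.2 to 32.5 CPM over 6 genes, with Lhcgr at or under that floor throughout. Over 4 endothelial markers the sums were 43.3 to 47.2, 14.4 to 18.7 and 12.2 to 12.8 CPM, and over 4 macrophage markers they were 15.5 to 17.3, 5.72 to 9.52 and 5.49 to 7.49 CPM. Not every gene followed its sum. Against 0 h, Thy1, which was listed here with the stromal markers, was called lower (log2 fold change -1.49 at 24 h and -0.996 at 48 h). The Sertoli gene Sox9 was called lower at 24 h (-0.80), and the myoid gene Des was not called. The endothelial gene Tek was called higher (1.31 and 1.53) while Pecam1 and Kdr were called lower. The macrophage gene Csf1r was called higher at 24 h (1.90) while Cd68 was called lower. The part of these other transcripts in the results below was not tested. Fewer cells of a type and less RNA per cell cannot be told apart in bulk samples.

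Ruvbl2 fell while no change was called for Ruvbl1. Ruvbl2 was at 114, 127 and 154 CPM in the 3 libraries of 0 h, at 76.7, 75.8 and 77.6 CPM at 24 h, and at 72.5, 72.7 and 74.4 CPM at 48 h. Every library of 24 h and 48 h lay below every library of 0 h, and the later libraries lay within a few CPM of each other. The log2 fold change was -0.77 ± 0.13 (SE, n = 3 per group) at 24 h against 0 h, with an adjusted p of 0.00465 in edgeR's quasi-likelihood test. For 48 h against 0 h it was -0.85 ± 0.13, with an adjusted p of 0.00256 in the same test. Between 24 h and 48 h the value was -0.08 ± 0.06 (edgeR adjusted p = 0.384), although the 3 libraries of 48 h were all lower than those of 24 h. The fall against 0 h kept its call in all 15 alternative settings of each comparison, with values from -0.86 to -0.61 at 24 h and from -0.94 to -0.56 at 48 h. The smallest of these at 48 h came from a fit with offsets for GC content and gene length.

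Ruvbl1 was at 121, 145 and 172 CPM at 0 h, at 157, 137 and 162 CPM at 24 h, and at 141, 157 and 124 CPM at 48 h. The 3 groups overlapped in each comparison. Its log2 fold changes were 0.07 ± 0.15 at 24 h against 0 h, -0.05 ± 0.16 at 48 h against 0 h and -0.12 ± 0.10 at 48 h against 24 h, with edgeR adjusted p of 0.775, 0.836 and 0.382. A missed threshold does not show that its level stayed the same. A pseudogene, Gm5837, matched 76.9% of the 75-base windows of the longest Ruvbl1 transcript at 97% identity. It held 19 to 92 counts per library against 1942 to 3611 for Ruvbl1.

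**Figure D1:**
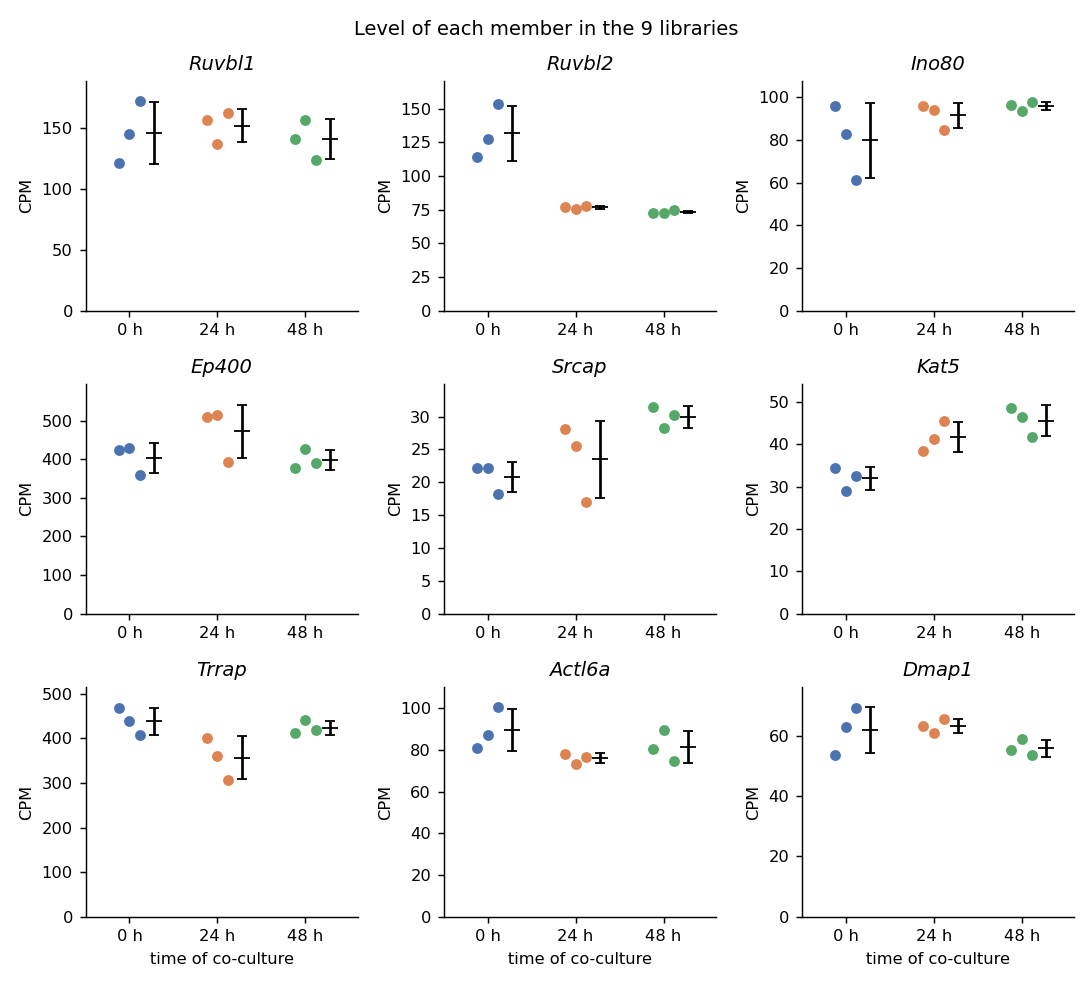
Level of each of the 9 genes in CPM (vertical axis, starting at 0) in the 3 libraries of each time point (points), with the mean and SD of each group (bar). Ruvbl2 lies at 114 to 154 CPM at 0 h and at 72.5 to 77.6 CPM in the later libraries, while the points of Ruvbl1 overlap between the groups.

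The balance of the paired helicases can also be read within each library, without any scaling between libraries. Per base of annotated exon, Ruvbl2 had 0.617, 0.575 and 0.585 of the counts of Ruvbl1 at 0 h. At 24 h the ratio was 0.320, 0.362 and 0.313, and at 48 h it was 0.336, 0.304 and 0.393. All 6 later libraries lay below the 3 libraries of 0 h, and the 24 h and 48 h libraries overlapped. In mean log2 ratio the difference was -0.84 at 24 h and -0.79 at 48 h against 0 h, each with p = 0.1 in a two-sided exact permutation test (0.167 adjusted over 15 such tests on 5 ratios), the smallest p that 3 against 3 libraries allow. Between 24 h and 48 h the difference was 0.05 (exact permutation p = 0.7, adjusted p = 0.7).

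Part of Ruvbl2 overlaps other genes. Its exons share 15.4% of their bases with Gys1 (glycogen synthase) and Lhb (a gonadotropin subunit), both on the other strand, and the library kit as described does not mark strand. Lhb had 0 counts in the 9 libraries. Gys1 was at 47.0, 50.8 and 56.5 CPM at 0 h, at 47.8, 49.3 and 52.6 CPM at 24 h, and at 26.6, 28.01 and 25.6 CPM at 48 h. The levels of Gys1 overlapped between 0 h and 24 h, and at 48 h they were below those of both earlier times, as the 48 h levels of Ruvbl2 were. The part of Gys1 reads in the Ruvbl2 counts was not tested.

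**Figure D2:**
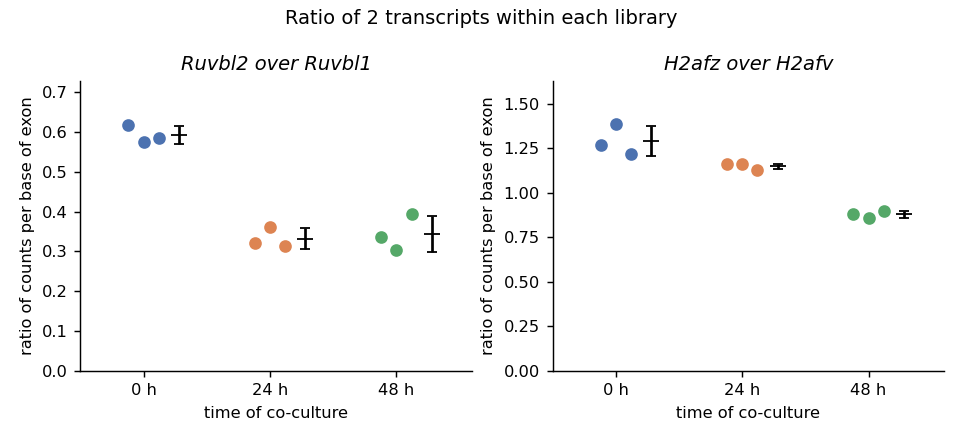
Ratio of Ruvbl2 to Ruvbl1 (left) and of H2afz to H2afv (right) within each library, as counts per base of exon, for 3 libraries per time point (points) with mean and SD (bar). The Ruvbl2 ratio lies at 0.575 to 0.617 at 0 h and at 0.304 to 0.393 later, and the H2afz ratio at 1.22 to 1.39, 1.13 to 1.16 and 0.857 to 0.897 at 0 h, 24 h and 48 h.

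Kat5 (ENSMUSG00000024926, chr19:5603014-5610237, minus strand), the acetyltransferase of the TIP60 complex that modifies histones H4 and H2A, was higher at 48 h. It was at 34.5, 29.0 and 32.5 CPM at 0 h, at 38.4, 41.3 and 45.6 CPM at 24 h, and at 48.7, 46.5 and 41.6 CPM at 48 h. All libraries of 24 h and 48 h lay above those of 0 h, and 24 h and 48 h overlapped. Against 0 h, the log2 fold change at 48 h was 0.51 ± 0.12, with an adjusted p of 0.0177 in edgeR's test. At 24 h it was 0.40 ± 0.12 (edgeR adjusted p = 0.0528), just outside the threshold, and DESeq2 called it with an adjusted p of 0.0376. The call at 48 h was lost when 1 library was left out, namely 0 h replicate 2 (0.44, adjusted p = 0.0668), 48 h replicate 1 (0.47, 0.0875) or 48 h replicate 2 (0.49, 0.0714). Its exons share 12.1% of their bases with Rnaseh2c on the other strand. Rnaseh2c had means of 31.56, 39.65 and 37.59 CPM at 0 h, 24 h and 48 h. Its libraries of 0 h ran from 14.7 to 42.9 CPM. The part of Rnaseh2c reads in the Kat5 counts was not tested.

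Srcap (ENSMUSG00000053877, chr7:127511983-127561219, plus strand), the ATPase that exchanges H2A for H2A.Z, was also higher at 48 h. It stood at 22.2, 22.1 and 18.2 CPM at 0 h, 28.1, 25.5 and 16.9 CPM at 24 h and 31.4, 28.2 and 30.3 CPM at 48 h. The 24 h libraries were spread over the range of 0 h and beyond it, and those of 48 h lay above all others. The log2 fold change at 48 h against 0 h was 0.52 ± 0.12, with an adjusted p of 0.0166 in edgeR's test, against 0.19 ± 0.21 at 24 h (edgeR adjusted p = 0.573). This ended without 48 h replicate 1 (0.50, adjusted p = 0.0794) and without 48 h replicate 3 (0.52, 0.0684). Its level is uncertain because 65% of its exon bases are shared with other annotated genes, among them the same-strand gene Gm42715, which had 15 to 41 counts per library against 347 to 649 for Srcap.

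For the other 5 genes edgeR called no change in the 3 comparisons. Ino80, the motor of the INO80 complex, was at 95.7, 82.6 and 61.1 CPM at 0 h, at 95.7, 94.2 and 84.5 CPM at 24 h, and at 96.2, 93.8 and 97.6 CPM at 48 h, so that the groups overlapped and the 0 h libraries were the most spread. Its log2 fold changes were 0.21 ± 0.17 and 0.26 ± 0.17 at 24 h and 48 h against 0 h (edgeR adjusted p = 0.442 and 0.283). Ep400, the H2A.Z-exchanging ATPase joined to KAT5, was at 424, 428 and 359 CPM at 0 h, 509, 515 and 393 CPM at 24 h and 379, 428 and 390 CPM at 48 h. The highest values were in 2 of the 3 libraries of 24 h, and the groups overlapped. From 24 h to 48 h the log2 fold change of Ep400 was -0.26 ± 0.11 (edgeR adjusted p = 0.113).

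Trrap encodes a very large pseudokinase that recruits acetyltransferase complexes to activators and is also part of SAGA. It was at 468, 439 and 407 CPM at 0 h, 402, 361 and 306 CPM at 24 h and 412, 441 and 419 CPM at 48 h. The 24 h libraries were all below those of 0 h and of 48 h, with log2 fold changes of -0.28 ± 0.14 at 24 h against 0 h (edgeR adjusted p = 0.177) and 0.24 ± 0.10 at 48 h against 24 h (0.102). DESeq2 called the latter, and the fit with GC and length offsets called the former (adjusted p = 0.0475). Actl6a, the actin-related protein BAF53A that also serves the BAF remodellers, was at 80.9, 87.3 and 100.5 CPM at 0 h, 78.0, 73.4 and 76.4 CPM at 24 h and 80.3, 89.7 and 74.6 CPM at 48 h. Only at 24 h did its libraries all lie below those of 0 h, with a log2 fold change of -0.22 ± 0.12 (edgeR adjusted p = 0.209). The exons of Actl6a share 11.6% of their bases with Mrpl47 on the other strand, and 21.8% of its windows matched other genes. Mrpl47 had means of 32.98, 26.06 and 33.18 CPM at 0 h, 24 h and 48 h. The part of Mrpl47 reads in the Actl6a counts was not tested. Dmap1, a subunit common to the SRCAP and TIP60 complexes, was at 53.8, 62.8 and 69.2 CPM at 0 h, 63.2, 60.9 and 65.5 CPM at 24 h and 55.2, 58.9 and 53.5 CPM at 48 h. The 48 h libraries were all below those of 24 h, with a log2 fold change of -0.19 ± 0.07 (edgeR adjusted p = 0.0839).

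Over the 9 genes, edgeR called 1 at 24 h against 0 h, which was lower (Ruvbl2), where 25.5% of the 17592 genes tested were called, 11.4% higher and 14.2% lower. In the comparison of 48 h with 0 h it called 3, with Kat5 and Srcap higher and Ruvbl2 lower, where 31.6% of 17755 genes were called, 13% higher and 18.5% lower. Between 24 h and 48 h it called 0, where 21.3% of 17499 genes were called, 8.61% higher and 12.7% lower. Of the 9, 3 had an unadjusted p under 0.05 in the last comparison (Ep400, Trrap and Dmap1), and DESeq2 called 1 (Trrap). The median log2 fold changes of the 9 were 0.07, -0.05 and 0.06 in the 3 comparisons, and those of all genes tested were 0.01, 0.02 and -0.00. At 24 h against 0 h the libraries of the groups did not overlap for 4 of the 9 genes (1 higher, 3 lower), beside 43.4% of all genes (21.2% higher, 22.2% lower). The same held for 3 of the 9 at 48 h against 0 h (2 higher, 1 lower), beside 48.3% of all genes (22.9% and 25.4%). From 24 h to 48 h it held for 4 (2 higher, 2 lower), beside 39.6% (18.6% and 21%). The 24 h and 48 h comparisons share their 0 h libraries and are not independent. When libraries were scaled by their totals alone, the median of all genes moved to 0.12 at 24 h and 0.13 at 48 h against 0 h, and the share of called genes that were higher went from 44.5% to 57.1% and from 41.2% to 52.8%. Under that scaling Ruvbl2 was still called lower, at -0.65 and -0.74.

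**Figure D3:**
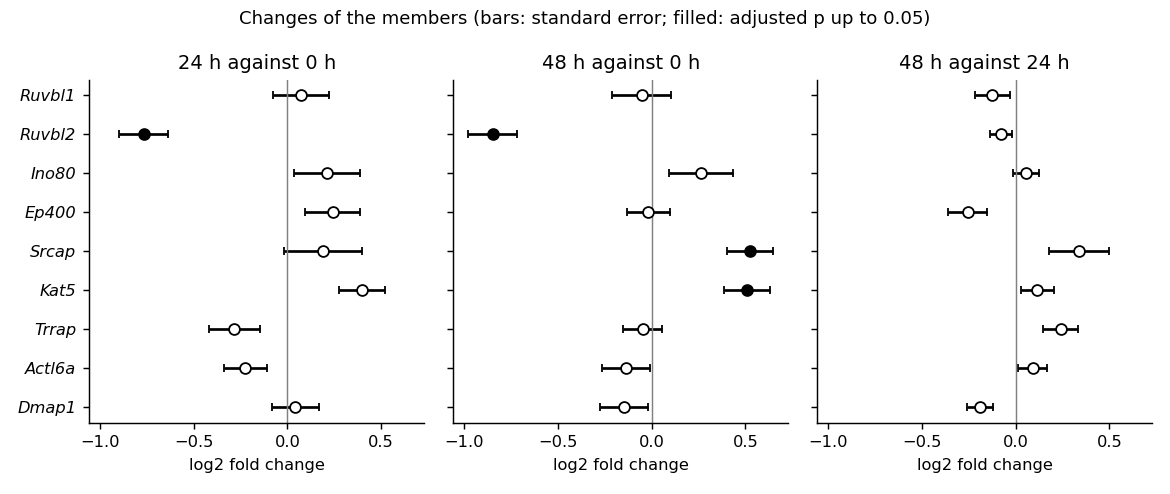
Log2 fold changes of the 9 genes (points) with standard errors (bars) in the 3 comparisons, each on 3 libraries per group, with filled points at an edgeR adjusted p of up to 0.05. Ruvbl2 is filled on the left of zero at 24 h (-0.77) and 48 h (-0.85) against 0 h, Srcap (0.52) and Kat5 (0.51) on the right at 48 h, and no point is filled at 48 h against 24 h.

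To compare levels between genes, counts were also divided by length (RPKM, with the union of annotated exons). Ruvbl1 had the highest level of the 9 genes at each time, with 76.9 ± 13.5, 80.1 ± 7.03 and 74.1 ± 8.66 RPKM (SD, n = 3) at 0 h, 24 h and 48 h. Ruvbl2 was next at 0 h with 45.4 ± 6.97 RPKM, and its libraries were apart from those of Ep400, at 28.9 ± 2.77 RPKM. At 24 h and 48 h Ruvbl2 stood at 26.4 ± 0.308 and 25.2 ± 0.366 RPKM, behind Ep400 at 33.8 ± 4.94 and 28.5 ± 1.83 RPKM in all 3 libraries of each time. At 0 h Ep400, Dmap1, Actl6a and Trrap followed each other with 28.9, 23.5, 23.1 and 21.01 RPKM, and neighbours in this order overlapped. Ino80 and Kat5, at 11.7 and 9.12 RPKM, overlapped as well, and both kept places 7 and 8 at 24 h (13.5 and 11.9 RPKM) and 48 h (14.1 and 13.0 RPKM). Srcap was lowest throughout, at 1.32, 1.49 and 1.90 RPKM, with the reservation on its shared exons given above. With the longest transcript as the length, Ruvbl1 stayed first and Srcap last at each time, while Ruvbl2 went from place 2 at 0 h to place 5 at 24 h and 48 h. Kat5 was then above Ino80 at each time (14.3 against 12.6, 18.6 against 14.4 and 20.3 against 15.1 RPKM), with their libraries apart at 24 h and 48 h.

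The genes most like each helicase across the 9 libraries were found from the root mean square difference of centred log2 CPM among 10356 genes with a mean of at least 10 CPM. For Ruvbl1 they were Eif6 (0.0507), Dtnbp1 (0.0525) and Klc1 (0.0551). For Ruvbl2 they were Gnai2 (0.0402), Shisa5 (0.0548) and Entpd6 (0.058). Gnai2, an inhibitory G protein subunit, was at 313, 335 and 416 CPM at 0 h, 219, 210 and 214 CPM at 24 h and 205, 210 and 201 CPM at 48 h, which follows the same course. The nearest of the other 8 members to Ruvbl1 was Dmap1 at place 61 (0.0818), with Actl6a at place 877. Ruvbl1 itself came at place 3896 in the order of likeness to Ruvbl2.

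The rest of the 3 complexes was described with 24 further subunits, all past the filter. Against 0 h, 1 was called at 24 h and 1 at 48 h, beside 25.5% and 31.6% of all genes, and in both cases the gene was Morf4l2, which encodes the MRG-domain protein MRGX of the TIP60 complex. Morf4l2 was at 218, 238 and 209 CPM at 0 h, 142, 152 and 161 CPM at 24 h and 131, 128 and 129 CPM at 48 h, each group below the one before it. It changed by -0.54 ± 0.10 on the log2 scale at 24 h (edgeR adjusted p = 0.00741) and -0.77 ± 0.10 at 48 h (edgeR adjusted p = 0.000946) against 0 h. Without 24 h replicate 1 the earlier of these was no longer called (adjusted p = 0.0525). Of the windows of its longest transcript, 33.8% matched other genes. The count of subunits called at 24 h went to 4 without 0 h replicate 3 and to 0 without 24 h replicate 1, and that at 48 h to 6 and 5 without 0 h replicates 1 and 3. Calls over all genes moved the same way in these fits. At 24 h they were 6023 and 2610 in place of 4494, and at 48 h 7116 and 6463 in place of 5602. With GC and length offsets the count of subunits was 5 at 24 h (3 higher, 2 lower) and 10 at 48 h (8 higher, 2 lower). Calls over all genes rose as well with these offsets. They went from 4494 to 6328 of 17592 genes at 24 h and from 5602 to 7600 of 17755 at 48 h. Among the 11 other INO80 subunits edgeR called 0 in both comparisons against 0 h, where 25.5% and 31.6% of all genes were called, with 0 and 1 at an unadjusted p under 0.05 and 0 and 1 called by DESeq2. The 1 with an unadjusted p under 0.05 was Ino80d at 48 h, at 1.07 ± 0.34 against 0 h (edgeR adjusted p = 0.0501). Its 48 h libraries were all above those of 0 h. Of the 11, 8 had a fold change above zero in that comparison and 3 below. Among the 4 other SRCAP subunits edgeR called 0 in all 3 comparisons, beside 25.5%, 31.6% and 21.3% of all genes, with 0, 0 and 2 at an unadjusted p under 0.05 and 0 called by DESeq2.

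Between 24 h and 48 h, 9 of these 24 subunits were called, 6 higher and 3 lower, beside 21.3% of all genes. Of them, 8 belong to the 11 listed TIP60 subunits and 1, Ino80d, to INO80. Higher were the scaffold genes Epc1 (0.41 ± 0.10) and Epc2 (0.62 ± 0.10), the bromodomain gene Brd8 (0.20 ± 0.06), Ing3 (0.51 ± 0.09), whose PHD finger reads methylated H3, and Mbtd1 (0.26 ± 0.07), which has MBT repeats. Lower were Morf4l1 (-0.24 ± 0.06), Morf4l2 (-0.24 ± 0.06) and Meaf6 (-0.24 ± 0.06), a small subunit common to several acetyltransferase complexes. The 8 TIP60 subunits thus moved in both directions, and adjusted p in edgeR's test ran from 0.00376 for Epc2 to 0.0405 for Brd8.

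Ing3 was at 27.97, 31.3 and 32.9 CPM at 24 h and at 43.4, 40.5 and 48.9 CPM at 48 h, and Ino80d at 57.8, 53.3 and 43.1 CPM and at 86.7, 70.2 and 86.0 CPM. In both genes the 48 h libraries were above all 24 h libraries, and the 0 h libraries were spread widely, from 21.01 to 39.1 CPM for Ing3 and from 18.8 to 52.4 CPM for Ino80d. Epc2 was at 13.2, 14.3 and 15.4 CPM at 24 h and 21.9, 20.2 and 24.5 CPM at 48 h. With all 9 libraries in 1 fit, where the spread of the 0 h libraries enters, edgeR called 1 of the 24 subunits in place of 9. Over all genes that fit called 1043 at 48 h against 24 h in place of 3732. Of the 24 subunits, 5, 6 and 5 were called without 24 h replicates 1, 2 and 3. The counts were 4, 8 and 3 without 48 h replicates 1, 2 and 3. The call of Epc1 was lost without 24 h replicate 1 or 48 h replicate 3, and those of Epc2, Ing3 and Ino80d, of all 15 alternatives, only in the fit of 9 libraries. Brd8 was not called without 24 h replicate 1 or 2 or 48 h replicate 1 or 3, and Mbtd1 not without replicate 1 or 3 of either time. Morf4l1 was not called without 24 h replicate 3 or 48 h replicate 1 or 3. Meaf6 kept its call when 48 h replicate 2 was left out and Morf4l2 when 24 h replicate 1 was, and both lost it without any other library. With GC and length offsets the fold change of Mbtd1 went to 0.027 and was not called (adjusted p = 0.864), while Ing3 (0.33), Ino80d (0.35) and Morf4l1 (-0.43) kept their calls at other sizes.

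**Figure D4:**
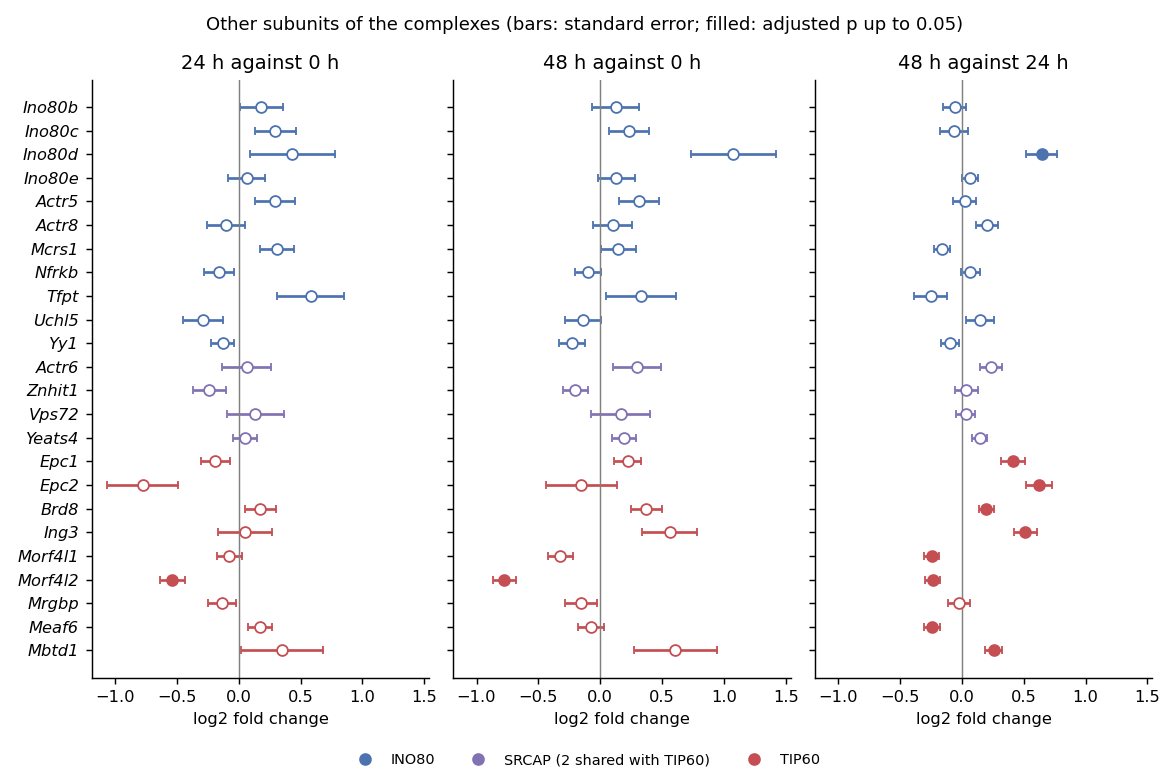
Log2 fold changes (points) with standard errors (bars) of the 24 further subunits in the 3 comparisons, coloured by complex, with filled points at an edgeR adjusted p of up to 0.05. Morf4l2 is the one filled point in each comparison with 0 h, and 9 points are filled at 48 h against 24 h, 8 of them TIP60 subunits.

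The substrate of the SRCAP and EP400 motors, H2A.Z, is made from H2afz and H2afv, and ANP32E is the chaperone that takes H2A.Z off chromatin. Anp32e was at 119.5, 137 and 112.5 CPM at 0 h, 86.0, 83.7 and 98.9 CPM at 24 h and 79.4, 75.9 and 69.9 CPM at 48 h, with no overlap between any groups. It fell by 0.45 ± 0.12 at 24 h and by 0.71 ± 0.12 at 48 h against 0 h on the log2 scale, with adjusted p of 0.0312 and 0.00339 in edgeR's test. At 48 h against 24 h it fell by 0.26 ± 0.08 (edgeR adjusted p = 0.0491). The call at 48 h against 0 h held in all 15 alternatives, that at 24 h in 8 and that between 24 h and 48 h in 5, while the fold changes stayed below zero in all of them, from -0.51 to -0.33 at 24 h and from -0.35 to -0.17 between 24 h and 48 h. The call at 24 h was lost without 0 h replicate 2 or any library of 24 h, and the call between 24 h and 48 h without any 1 of its 6 libraries, with -0.17 without 24 h replicate 3.

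H2afz was at 181, 209 and 221 CPM at 0 h, 205, 180 and 227 CPM at 24 h and 151, 153 and 136 CPM at 48 h. The 48 h libraries were below all others. Its log2 fold change was -0.49 ± 0.09 at 48 h against 24 h, with an edgeR adjusted p of 0.00559 and the same call in all 15 alternatives. Against 0 h it was -0.47 ± 0.11 (edgeR adjusted p = 0.0175), a call lost without 0 h replicate 2 or any single library of 48 h. H2afv was at 131 to 167 CPM at 0 h, 143 to 184 CPM at 24 h and 140 to 164 CPM at 48 h and was not called. The ratio of H2afz to H2afv per base of exon was 1.27, 1.39 and 1.22 at 0 h, 1.16, 1.16 and 1.13 at 24 h and 0.883, 0.857 and 0.897 at 48 h, with exact permutation p = 0.1 (adjusted p = 0.167) in each comparison. Which of these genes is higher at 48 h depends on the gene length used. With the longest transcript, H2afz and H2afv had mean RPKM of 190.5 and 89.02 at 0 h, 190.7 and 99.92 at 24 h and 137.3 and 94.07 at 48 h. Other genes, among them the pseudogene Gm8203, matched 87.5% of the windows of H2afz, and its level is therefore uncertain.

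Outside chromatin, 13 cochaperone partners of the helicases were examined, and 2, 2 and 2 of them were called in the 3 comparisons, beside 25.5%, 31.6% and 21.3% of all genes. Rpap3, which encodes the HSP90-binding subunit of R2TP, was at 94.5, 86.3 and 76.1 CPM at 0 h, 43.2, 43.1 and 41.3 CPM at 24 h and 44.6, 50.2 and 44.9 CPM at 48 h. All later libraries were below those of 0 h. Against 0 h it stood at -0.996 ± 0.121 (24 h) and -0.879 ± 0.128 (48 h) on the log2 scale, with adjusted p of 0.00111 and 0.00203 in edgeR's test and the same calls in all 15 alternatives. Pih1d1, the adaptor subunit of R2TP, went the other way at 24 h. It was at 36.4, 37.9 and 43.9 CPM at 0 h, 57.1, 49.9 and 63.2 CPM at 24 h and 44.3, 46.2 and 46.8 CPM at 48 h. The 24 h libraries were the highest, at 0.54 ± 0.14 against 0 h (edgeR adjusted p = 0.0241), and 48 h stood at -0.32 ± 0.09 against 24 h (edgeR adjusted p = 0.0343). The first call was lost without 0 h replicate 2 or 24 h replicate 1 or 3, and the latter without 24 h replicate 1 or 3 or 48 h replicate 1 or 3. With GC and length offsets the latter also went to -0.099 and was not called (adjusted p = 0.461). Wdr92 was lower at 48 h against 0 h (-0.39 ± 0.12, edgeR adjusted p = 0.0449), and Uri1 at 48 h against 24 h (-0.23 ± 0.07, edgeR adjusted p = 0.0409). Leaving out any single library except 0 h replicate 1 ended the call of Wdr92, and leaving out any single library ended that of Uri1.

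**Figure D5:**
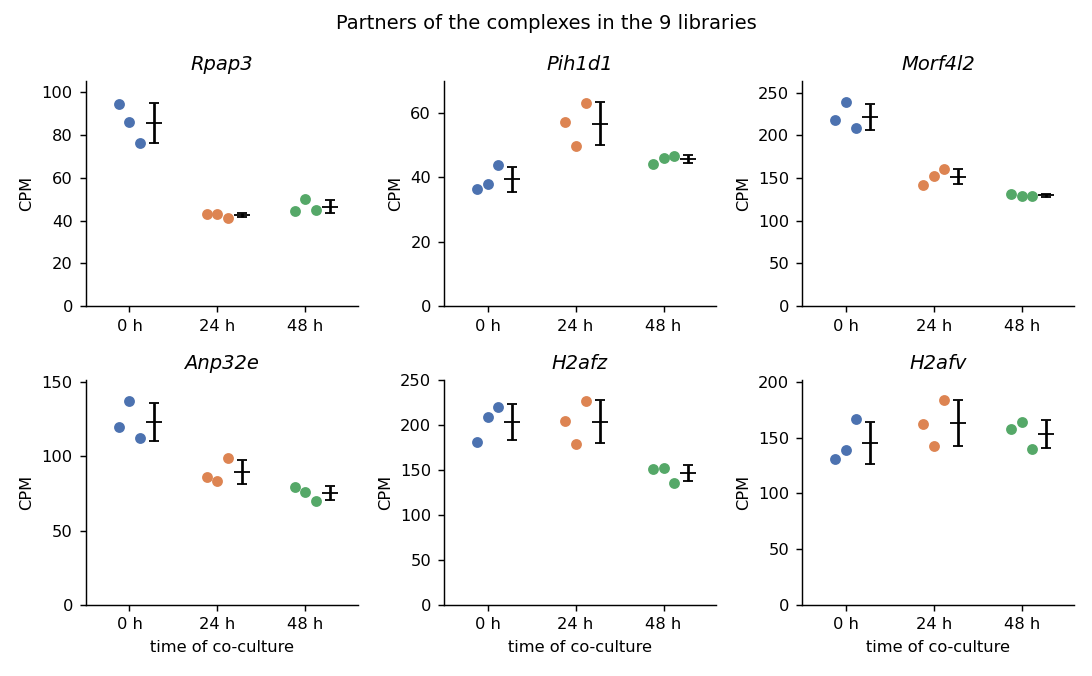
Level in CPM (vertical axis, starting at 0) of Rpap3, Pih1d1, Morf4l2, Anp32e, H2afz and H2afv in the 3 libraries of each time point (points) with mean and SD (bar). Rpap3 lies at 76.1 to 94.5 CPM at 0 h and at 41.3 to 50.2 CPM later, and H2afz at 136 to 153 CPM at 48 h, below all earlier libraries.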

How the data were processed

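Poly-A RNA of sorted EGFP-SSCs was sequenced in 9 libraries, 3 at each of 0 h, 24 h and 48 h. For each Ensembl gene the authors deposited raw counts of reads, not normalized. The submitters' processing notes name fastp, HISAT2, featureCounts and GRCm38, and the versions, the annotation and the strand setting are not given in the sources used here. Reads of overlapping or near-identical genes can therefore be split or dropped. Library totals ran from 16825251 to 22201892 counts, and 3 counts per library was taken as the floor.

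Symbols, positions and exon lengths came from GENCODE release M21, which held 45229 of the 46078 identifiers. The others took at most 0.121% of the counts of a library. Each comparison used edgeR 4.0.16 in R 4.3.3 on its 6 libraries (filterByExpr, TMM, two-sided quasi-likelihood test, Benjamini-Hochberg adjustment over the genes tested, threshold 0.05). The study itself used DESeq2. RPKM were computed here from the counts. Within-library ratios were compared with exact permutation tests. BLAST 2.17.0 gave the share of 75-base windows that match another gene. Promoter windows came from RefSeq, and the start of Dmap1 alone among the 9 genes did not match an annotated transcript. The procedure was tested on simulated data.

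The 9 genes were named by complex membership. All 9 are described. Of the further subunits and partners, written from general knowledge, a gene is named where it was called in a comparison, with H2afv named besides because it pairs with H2afz. Cell type markers are given as sums, with the germ cell markers, those at the floor throughout and some single genes of the other lists named. The neighbours Gys1, Lhb, Rnaseh2c, Mrpl47, Gm42715, Gm5837 and Gm8203 are named for sharing sequence, and the 3 nearest genes to each helicase by the likeness rule. The members and lists were chosen with earlier results of these data known. The alternatives were DESeq2 1.42.0, its size factors, library size alone, 1 joint fit of the 9 libraries, no filter or a minimum of 10 counts per library, a block for the replicate number, offsets for GC content and length, both together, the longest transcript as gene length, and leaving out each library in turn. Histone mass spectrometry and pull-down data were not analysed here.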

Additional observations from a re-analysis of the deposited data

How the results depend on the processing

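The fall of Ruvbl2 against 0 h kept its direction and call in all 15 alternatives of each comparison. The count of the 9 genes called at 24 h against 0 h was 2 with DESeq2, with library size alone, with at least 10 counts in every library and with all 9 libraries in 1 fit, and 3 with GC and length offsets, in place of 1. Kat5 was the added gene in each, with Trrap besides under GC and length offsets. Over all genes, 5022 were called at 24 h against 0 h with DESeq2 and 4802 with library size alone, in place of 4494. It was 4088 with at least 10 counts in every library, 4270 without a filter and 5751 in the joint fit. At 48 h against 24 h the count of the 9 genes called was 1 with DESeq2, 3 without a filter, 1 with GC and length offsets and 1 with these and the replicate block. Leaving out single libraries gave 1 to 2, 1 to 3 and 0 to 1 called in the 3 comparisons. Of the 24 further subunits, 2 were called at 24 h against 0 h with DESeq2, without a filter and with all 9 libraries in 1 fit, and 5 with GC and length offsets, with or without the block. At 48 h against 0 h, 4 were called with DESeq2, 2 with its size factors, 4 with library size alone, 2 without a filter, 5 with all 9 libraries in 1 fit, 10 with GC and length offsets and 9 with these and the block, in place of 1. Over all genes, 6167 were called at 48 h against 0 h with DESeq2, 5603 with its size factors and 5765 with library size alone, in place of 5602. It was 5280 without a filter and 6945 in the joint fit. Of the 24 subunits, the joint fit of the 9 libraries called 1 at 48 h against 24 h. Leaving out single libraries gave 0 to 4, 1 to 6 and 3 to 8. Of all genes, the joint fit called 1043 at 48 h against 24 h, and leaving out single libraries gave 2607 to 6023, 3471 to 7116 and 1857 to 4356. GC and length offsets called 6328 of all genes at 24 h and 7600 at 48 h against 0 h, and 5367 and 6852 with the block. The replicate numbers recur at each time. The deviations of the 9 same-numbered pairs correlated between -0.28 and 0.196, with 1 over 0.1. Those of the other pairs correlated between -0.392 and 0.38. A library correlated best with its own number in 3 of 18 cases. Whether libraries of the same number shared a culture or a day was not tested. With the replicate block, 1 of the 9 genes was called at 48 h against 0 h in place of 3, since Kat5 and Srcap missed the threshold, and 4 of the 24 subunits at 48 h against 24 h in place of 9. Over all genes it left 3007, 4013 and 2497 calls in place of 4494, 5602 and 3732. With GC and length offsets, alone and with the block, Ruvbl1 (0.082 and 0.079) and Dmap1 (0.089 and 0.089) changed sign at 48 h against 0 h and Ruvbl2 (0.15 and 0.15) at 48 h against 24 h. Library size alone turned Ruvbl1 (0.059), Ep400 (0.092) and Trrap (0.062) at 48 h against 0 h. Leaving out single libraries gave ranges across zero for Ruvbl1 (-0.042 to 0.23) and Dmap1 (-0.046 to 0.16) at 24 h and for Ruvbl1 (-0.17 to 0.11), Ep400 (-0.080 to 0.029) and Trrap (-0.086 to 0.0049) at 48 h against 0 h. None of these values was called. The cause of these changes was not tested. Over the fold changes of single genes and the settings that left out no library, 377 values kept their sign and side of the threshold, 43 lost and 12 gained a call, and 9 changed sign. With the longest transcript as gene length the ratio of the highest to the lowest RPKM, averaged over the 3 libraries of 0 h, went from 59.5 to 45.5. The highest gene was Ruvbl1 and the lowest Srcap, and both share sequence with other genes, as given above.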

Other observations

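Within the 0 h group the genes of the complexes differed between libraries in opposite directions. Mbtd1 was at 139, 109 and 49.0 CPM in 0 h replicates 1, 2 and 3, Ino80d at 52.4, 44.1 and 18.8 CPM, Epc2 at 33.2, 26.6 and 14.2 CPM, and Ino80 at 95.7, 82.6 and 61.1 CPM, lowest in replicate 3 in each case. Ruvbl1, Ruvbl2, Actl6a and Dmap1 were highest in that same library, at 172, 154, 100.5 and 69.2 CPM. These genes were picked out after their values were seen. The libraries of 48 h were closer together, with Mbtd1 at 154, 143 and 156 CPM and Ino80 at 96.2, 93.8 and 97.6 CPM. Without 0 h replicate 3, Ruvbl2 stood at -0.61 at 24 h and -0.69 at 48 h against 0 h and was still called lower in both.

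Paralogs in the TIP60 complex could be compared within each library as well. Morf4l2 had 3.21, 2.90 and 2.78 times the counts of Morf4l1 per base of exon at 0 h, 2.08, 2.18 and 2.18 times at 24 h and 2.18, 2.08 and 2.22 times at 48 h. The 0 h libraries were above all later ones, with exact permutation p = 0.1 (adjusted p = 0.167) for each. The size of this ratio depends on the gene length used. With the longest transcript, Morf4l2 and Morf4l1 had mean RPKM of 111.1 and 50.33 at 0 h, 75.91 and 47.31 at 24 h and 64.91 and 40.25 at 48 h. Other genes matched 33.8% of the windows of Morf4l2 and 23.0% of those of Morf4l1. For Epc2 over Epc1 the ratio was 0.910, 0.737 and 0.390 at 0 h, 0.447, 0.403 and 0.516 at 24 h and 0.565, 0.456 and 0.556 at 48 h, and the groups overlapped in all 3 comparisons.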
